A study of Mus musculus with 6 samples.

Results

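The 32 genes described here encode enzymes and transporters of glycolysis and genes that cells switch on when oxygen is short, in single-cell RNA data of mouse intestinal organoids. They were taken by symbol from a list, with no threshold on their values, and all 32 were found among the 55228 gene symbols of the files and had UMIs (unique molecular identifiers, 1 per captured RNA molecule) in each of the 6 libraries. The list was made with earlier results of these data known, so how often its genes differ is described and not tested as a list. Of the 32, 14 are glycolytic enzymes from hexokinase to lactate dehydrogenase, and 18 are transporters, regulators and hypoxia-response genes.

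Organoids are cultures of gut epithelium that hold stem, absorptive and secretory cells. All 6 libraries came from wild-type C57BL/6 mice 8 weeks old. At day 4 there was 1 library each of organoids under each of 4 conditions: a 5 µM RXR antagonist (RXR are nuclear receptors for vitamin A derivatives), 10 µM all-trans retinoic acid, vitamin A-free medium, or DMSO as the vehicle. At day 1 there were 2 libraries of vehicle organoids. Treatment was given at day 0 and again at day 3. The day-3 treatment came with a change from a medium holding Wnt3a, a ROCK inhibitor and a GSK3 inhibitor to one without them, so time in culture and medium cannot be told apart between day 1 and day 4. The labels do not say if DMSO was added to the vitamin A-free medium, and the unit of both doses is written "μm" in the labels and read as micromolar.

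Glycolysis splits glucose into pyruvate in the cytosol, and lactate dehydrogenase turns pyruvate into lactate so that the pathway can run without oxygen. When oxygen is short, prolyl hydroxylases no longer mark the hypoxia-inducible factors (HIF) for decay, and HIF binds short DNA elements near glycolytic genes, lactate and glucose transporters, angiogenic factors and genes that restrain mitochondria. In the intestine the villus tip is known for lower oxygen than the crypt. In mouse crypts, Paneth cells are known for glycolysis and their neighbours, the Lgr5 stem cells, for mitochondrial respiration.

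From 3468 to 5327 cells per library were kept, with 47258161 to 62567817 UMIs and a median of 9968 to 13365.5 UMIs per cell. Libraries shared 2 to 17 barcodes pairwise. The median mitochondrial share of UMIs was 1.85% with the antagonist, 4.40% with retinoic acid, 3.69% in vitamin A-free medium and 3.58% in the day-4 vehicle, and 2.94% and 2.82% at day 1. All 6 epithelial markers were at 10 CPM or more in each library (CPM, a gene's UMIs per 1000000 UMIs of its library). Within a set of cells, CPM is per 1000000 UMIs of that set's own cells in the library. Markers of fibroblasts, endothelium and immune cells summed to at most 3.70 CPM per type and those of red blood cells were at 0. Levels below are sums over many cells, in which fewer cells of a type and less RNA per cell cannot be told apart. Each treatment has 1 library, so treatments were compared by size and not tested, and comparisons with the day-4 vehicle share its library. Intervals in parentheses after a fold are exact 95% counting intervals, which leave out the spread between cultures.

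The promoters of the genes are shown first. Of 32 genes, 29 had an entry in the RefSeq promoter table (GRCm38.p6, 250 bases before to 50 after a start, 300 bases in all), with 40 promoters. Ndufa4l2, Ndrg1 and Bhlhe40 are named only. The letters ACGTG, the core of the hypoxia response element, were searched on both strands, as ACGTG or CACGT. They were found in 23 of 40 promoters (57.5%), belonging to 21 genes, against 19.6% of all 32851 promoters in the table. A single palindrome CACGTG counts as 2 matches, and on that count 2 or more were in 22.5% against 8.21%. The members' promoters are rich in G and C (median 64.0%, against 52.7% for all). Among 11777 promoters of similar G and C content 25.4% held the letters and 11.6% held 2 or more matches. The variant GCGTG was in 57.5% against 32.4% of all promoters and 49.8% of those of similar G and C content. A match is a description of letters and not of a site in use. The genes were listed by their role in glycolysis and hypoxia, so these shares describe the list and are no test.
The 250 bases before the start of 6 genes of different roles, chosen among the 21 that hold the letters, are printed with ACGTG or CACGT in capitals. They cover the glucose transporter Slc2a1, the enzymes Pgk1 and Ldha, the lactate exporter Slc16a3, the oxygen sensor Egln3 and the mitophagy receptor Bnip3.
Slc2a1, chr4:119108495-119108744, plus strand: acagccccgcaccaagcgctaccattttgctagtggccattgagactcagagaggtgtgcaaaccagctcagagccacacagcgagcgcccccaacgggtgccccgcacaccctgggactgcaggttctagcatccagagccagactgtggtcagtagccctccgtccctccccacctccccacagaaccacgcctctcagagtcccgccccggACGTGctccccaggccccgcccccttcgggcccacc
Pgk1, chrX:106186850-106187099, plus strand: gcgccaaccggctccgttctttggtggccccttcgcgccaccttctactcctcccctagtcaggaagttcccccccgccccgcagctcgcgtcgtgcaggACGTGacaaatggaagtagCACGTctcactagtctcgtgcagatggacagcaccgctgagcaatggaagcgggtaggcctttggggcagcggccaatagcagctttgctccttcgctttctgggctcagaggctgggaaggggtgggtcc
Ldha, chr7:46845554-46845803, plus strand: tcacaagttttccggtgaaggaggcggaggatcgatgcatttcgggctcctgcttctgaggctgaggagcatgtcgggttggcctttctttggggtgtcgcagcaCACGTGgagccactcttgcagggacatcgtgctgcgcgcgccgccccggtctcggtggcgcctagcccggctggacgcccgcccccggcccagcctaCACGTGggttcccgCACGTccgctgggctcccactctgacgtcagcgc
Slc16a3, chr11:120948817-120949066, plus strand: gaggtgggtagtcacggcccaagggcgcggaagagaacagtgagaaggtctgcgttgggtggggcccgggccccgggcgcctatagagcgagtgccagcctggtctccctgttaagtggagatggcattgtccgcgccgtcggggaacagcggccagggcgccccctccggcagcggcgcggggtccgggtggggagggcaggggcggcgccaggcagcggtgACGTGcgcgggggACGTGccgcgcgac
Egln3, chr12:54203875-54204124, minus strand: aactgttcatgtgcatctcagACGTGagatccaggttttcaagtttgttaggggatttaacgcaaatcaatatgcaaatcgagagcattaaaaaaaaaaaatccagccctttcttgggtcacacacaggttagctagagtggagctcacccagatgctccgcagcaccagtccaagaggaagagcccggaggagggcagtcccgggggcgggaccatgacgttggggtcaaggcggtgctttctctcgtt
Bnip3, chr7:138909507-138909756, minus strand: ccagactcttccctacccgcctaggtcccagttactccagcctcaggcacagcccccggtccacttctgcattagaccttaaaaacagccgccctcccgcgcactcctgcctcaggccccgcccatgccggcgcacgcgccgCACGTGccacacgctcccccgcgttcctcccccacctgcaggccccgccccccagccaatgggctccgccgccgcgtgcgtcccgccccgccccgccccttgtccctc
Ldha held 5 matches in this stretch, among them the palindrome CACGTG at 2 places, which counts on both strands. Slc16a3 had its 2 matches nearest the start, and Egln3 had its 1 match near the far end. In 8 genes no promoter held the letters, namely Adm, Adm2, Eno1, Gpi1, Pdk1, Pfkl, Pfkp and Tpi1.

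Over all cells, glycolytic enzymes were most abundant with the RXR antagonist and least abundant at day 1, and retinoic acid lay between day 1 and the day-4 vehicle. The 14 enzymes summed to 23250.5 CPM with the antagonist, 10692 with retinoic acid, 17446 in vitamin A-free medium and 17960.3 in the day-4 vehicle, and to 6334 and 6791 at day 1. The 18 other members summed to 3816 CPM with the antagonist, 797 with retinoic acid, 2123 in vitamin A-free medium and 2133 in the day-4 vehicle, and to 454 and 514 at day 1. Together the 32 genes took 2.71% of all UMIs with the antagonist, 1.15% with retinoic acid, 1.96% in vitamin A-free medium, 2.01% in the day-4 vehicle, and 0.679% and 0.731% at day 1. The antagonist library was the highest of the 6 for 25 of 32 members, against 25.3% of all 9152 genes that reached 10 CPM in any library. Retinoic acid was the lowest of the 4 day-4 libraries for 31 of 32, Gapdh being the exception, against 60.1% of all genes. Both day-1 libraries lay below all 4 day-4 libraries for 21 of 32, against 15.3%, and retinoic acid lay below both day-1 libraries for 10 of 32, against 67.6%.

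**Figure D1:**
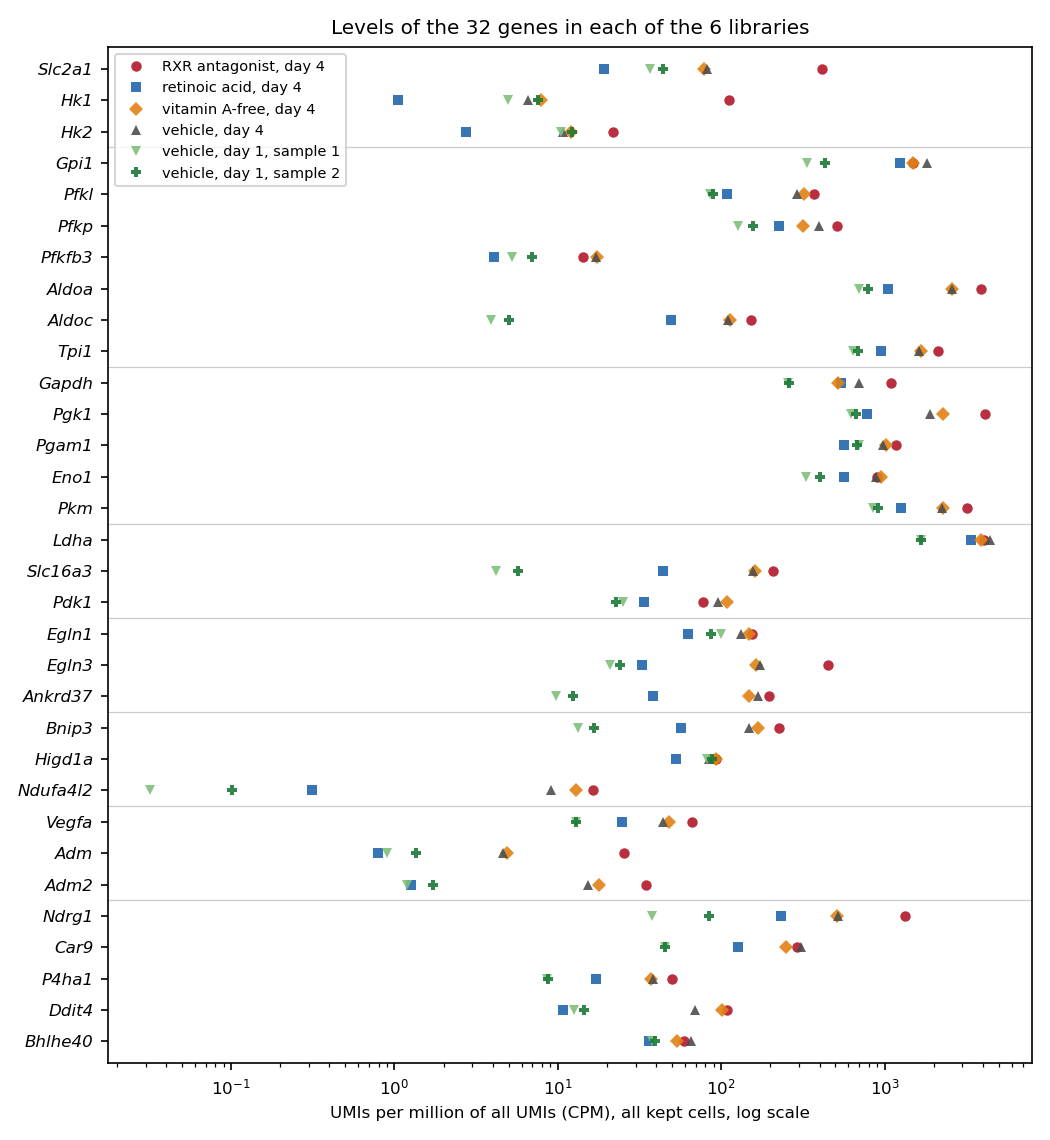
Level of each of the 32 genes (rows, grouped by role) as CPM over all kept cells on a log axis, with 1 point per library. For most genes the antagonist point lies to the right and the day-1 points to the left, while the vitamin A-free and day-4 vehicle points lie close together.

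The difference between day 1 and day 4 in vehicle lay in most cells, while the ranges of antagonist and vehicle cells overlapped widely. The UMIs of the 14 enzymes per 10000 UMIs of a cell had a median of 229 with the antagonist, 105 with retinoic acid, 173 in vitamin A-free medium, 177 in the day-4 vehicle and 62.6 and 66.3 at day 1. Their 10th to 90th percentiles were 136 to 335 with the antagonist, 69.2 to 147 with retinoic acid, 105 to 246 in vitamin A-free medium and 114 to 253 in the vehicle. At day 1 they were 47.7 to 78.9 and 43.3 to 84.8. The 10th percentile of the day-4 vehicle thus lay above the 90th percentile of both day-1 libraries, and that of the antagonist lay below the vehicle's median.

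**Figure D2:**
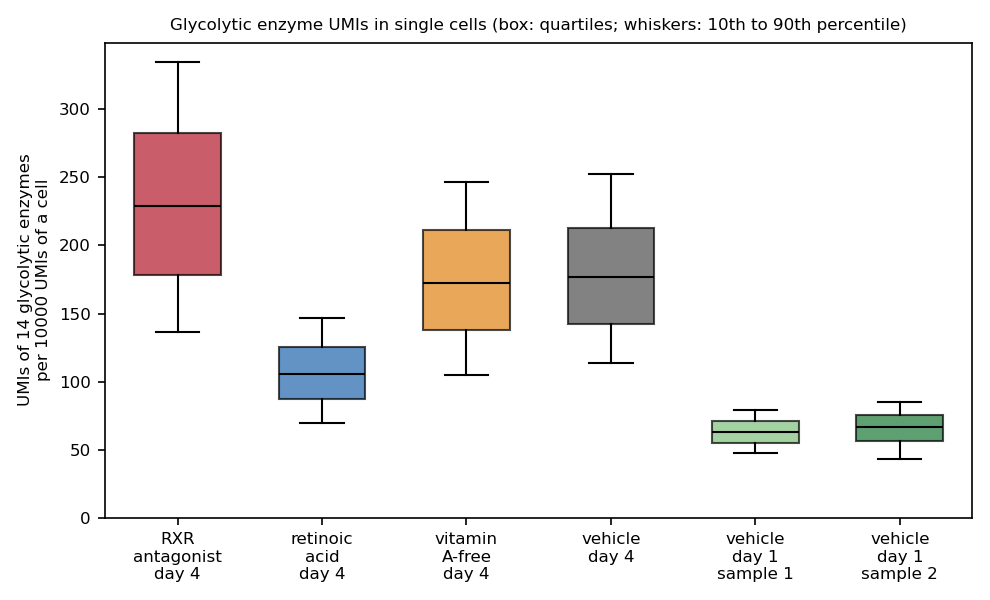
UMIs of the 14 glycolytic enzymes per 10000 UMIs of a cell (vertical axis) in each library, as boxes of the quartiles with a line at the median and whiskers from the 10th to the 90th percentile. The day-1 boxes are narrow and low, and the antagonist box is the highest and widest.

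Among glucose-entry genes, Slc2a1 and Hk1 stood far higher in the antagonist library than elsewhere. Slc2a1, the glucose transporter of most dividing cells, was at 413 CPM with the antagonist, 19.2 with retinoic acid, 78.5 in vitamin A-free medium, 81.7 in the day-4 vehicle, and 36.7 and 43.9 at day 1. The antagonist library stood alone at the top and retinoic acid alone at the bottom, below day 1. Hk1, a hexokinase that traps glucose in the cell, was at 112 CPM with the antagonist, 1.06 with retinoic acid, 7.86 in vitamin A-free medium, 6.61 in the day-4 vehicle, and 4.97 and 7.54 at day 1, again with the antagonist library far above the other 5, which were all under 10 CPM. Hk2, the hexokinase most often named as inducible, was at 21.7 CPM with the antagonist, 2.74 with retinoic acid, 12.1 in vitamin A-free medium, 10.7 in the day-4 vehicle, and 10.5 and 12.2 at day 1. For Hk2 the vitamin A-free, vehicle and day-1 values overlapped.

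In the upper steps of the pathway the day-1 libraries were low for each of the 7 genes, and retinoic acid was lower still for 1 of them. Gpi1, the isomerase after hexokinase, was at 1488 CPM with the antagonist, 1245 with retinoic acid, 1489.6 in vitamin A-free medium, 1823 in the day-4 vehicle, and 335 and 435 at day 1. It was highest in the vehicle, and retinoic acid was closer to the vehicle than to day 1. Pfkl and Pfkp, which encode liver-type and platelet-type phosphofructokinase, were also lowest at day 1. Pfkl was at 368 CPM with the antagonist, 109 with retinoic acid, 320.1 in vitamin A-free medium, 289.6 in the day-4 vehicle, and 85.6 and 88.9 at day 1. Pfkp was at 508 CPM with the antagonist, 225 with retinoic acid, 317 in vitamin A-free medium, 394 in the day-4 vehicle, and 127 and 158 at day 1. Both were highest with the antagonist. Pfkfb3, which makes the sugar phosphate that activates phosphofructokinase, was at 14.2 CPM with the antagonist, 4.06 with retinoic acid, 17.4 in vitamin A-free medium, 17.2 in the day-4 vehicle, and 5.21 and 6.98 at day 1, and here retinoic acid was below day 1.
Aldoa, the widespread aldolase, was at 3917 CPM with the antagonist, 1047 with retinoic acid, 2579.9 in vitamin A-free medium, 2575 in the day-4 vehicle, and 702 and 795 at day 1. The 3 day-4 libraries other than retinoic acid were all far above both day-1 libraries. Aldoc, the aldolase best known from brain, was at 152 CPM with the antagonist, 49.5 with retinoic acid, 113 in vitamin A-free medium, 110.5 in the day-4 vehicle, and 3.90 and 5.04 at day 1, so day 1 was near the floor and the day-4 libraries were all far above it. Tpi1, triosephosphate isomerase, ranged from 645 CPM in a day-1 library to 2137 with the antagonist.

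In the lower steps, Pgk1 moved most. Pgk1, phosphoglycerate kinase, which forms the first ATP of the pathway, was at 4127 CPM with the antagonist, 776 with retinoic acid, 2287 in vitamin A-free medium, 1899.6 in the day-4 vehicle, and 620.0 and 665 at day 1. The antagonist was highest, vitamin A-free medium was somewhat above the vehicle, and retinoic acid was near day 1. Gapdh, the dehydrogenase before it, was at 1098 CPM with the antagonist, 538 with retinoic acid, 523 in vitamin A-free medium, 694 in the day-4 vehicle, and 256 and 262 at day 1, so that retinoic acid and vitamin A-free medium were alike. Pkm, the pyruvate kinase of most cells outside liver, was at 3179.9 CPM with the antagonist, 1260.0 with retinoic acid, 2269.6 in vitamin A-free medium, 2258 in the day-4 vehicle, and 848 and 917 at day 1. Pgam1, phosphoglycerate mutase, and Eno1, enolase, had the smallest ranges among these enzymes, from 562 to 1172 CPM and from 330.2 to 949.5 CPM over the 6 libraries.
Genes that decide the fate of pyruvate lay within 1.5-fold of the vehicle in the antagonist library. Ldha, lactate dehydrogenase A, was at 4067 CPM with the antagonist, 3364 with retinoic acid, 3886 in vitamin A-free medium, 4422 in the day-4 vehicle, and 1666 and 1680.2 at day 1, with the 4 day-4 libraries close together and about equally far above day 1. Pdk1, a kinase that shuts pyruvate out of mitochondria, was at 77.0 CPM with the antagonist, 33.5 with retinoic acid, 109 in vitamin A-free medium, 95.6 in the day-4 vehicle, and 25.1 and 22.8 at day 1, highest in vitamin A-free medium. Slc16a3, the exporter that carries lactate out of the cell, was at 209 CPM with the antagonist, 44.1 with retinoic acid, 161 in vitamin A-free medium, 157 in the day-4 vehicle, and 4.20 and 5.70 at day 1, and the day-1 libraries were under 10 CPM.

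The oxygen-sensing genes split. Egln3, a prolyl hydroxylase that marks HIF for decay and is itself a HIF target, was at 450.2 CPM with the antagonist, 32.9 with retinoic acid, 163 in vitamin A-free medium, 174 in the day-4 vehicle, and 20.7 and 24.2 at day 1. The antagonist library was well above the vehicle, and retinoic acid was only slightly above day 1. Egln1, the main hydroxylase of this kind, varied less, at 155 CPM with the antagonist, 62.9 with retinoic acid, 149 in vitamin A-free medium, 133 in the day-4 vehicle, and 99.3 and 86.5 at day 1, with retinoic acid the lowest of all. Ankrd37, an ankyrin-repeat gene known as a HIF target, was at 196 CPM with the antagonist, 38.5 with retinoic acid, 148 in vitamin A-free medium, 167 in the day-4 vehicle, and 9.70 and 12.3 at day 1.
Among genes that act on mitochondria, Bnip3, a receptor that directs mitochondria to autophagy, was at 226 CPM with the antagonist, 56.7 with retinoic acid, 169 in vitamin A-free medium, 149 in the day-4 vehicle, and 13.3 and 16.7 at day 1. Ndufa4l2, which lowers activity of the respiratory chain in low oxygen, was at 16.3 CPM with the antagonist, 0.314 with retinoic acid, 12.8 in vitamin A-free medium, 9.03 in the day-4 vehicle, and 0.0320 and 0.101 at day 1, where the day-1 values were 2 and 6 UMIs. Higd1a, an inner-membrane protein, had the smallest ratio of highest to lowest library among the 32 members. That ratio was 1.75, from 53.0 CPM with retinoic acid to 92.7 with the antagonist.
The secreted factors were low throughout. Vegfa, the vascular growth factor, was at 66.3 CPM with the antagonist, 24.8 with retinoic acid, 47.9 in vitamin A-free medium, 43.8 in the day-4 vehicle, and 12.9 and 12.9 at day 1. Adm, which encodes the vessel-widening peptide adrenomedullin, was at 25.4 CPM with the antagonist, 0.793 with retinoic acid, 4.85 in vitamin A-free medium, 4.64 in the day-4 vehicle, and 0.895 and 1.35 at day 1, and passed 10 CPM only with the antagonist. Its relative Adm2 was at 34.9 CPM with the antagonist, 1.25 with retinoic acid, 17.9 in vitamin A-free medium, 15.2 in the day-4 vehicle, and 1.20 and 1.72 at day 1. For both peptides retinoic acid lay at the level of day 1.
Of the remaining hypoxia-inducible genes, Ndrg1, a gene induced in differentiating and oxygen-starved cells, was at 1331 CPM with the antagonist, 234 with retinoic acid, 509.5 in vitamin A-free medium, 519 in the day-4 vehicle, and 37.5 and 84.2 at day 1. It showed the largest gap between the day-1 libraries of all 32 members, 1.07 on the log2 scale, yet both stayed below every day-4 library. Car9, a cell-surface carbonic anhydrase that handles acid, was highest in the vehicle, at 291 CPM with the antagonist, 128 with retinoic acid, 251 in vitamin A-free medium, 309.9 in the day-4 vehicle, and 45.6 and 45.2 at day 1. Ddit4, an inhibitor of the growth kinase complex mTORC1, was at 108 CPM with the antagonist, 10.7 with retinoic acid, 102 in vitamin A-free medium, 69.4 in the day-4 vehicle, and 12.6 and 14.6 at day 1. P4ha1, a subunit of collagen prolyl hydroxylase, ranged from 8.63 CPM at day 1 to 50 CPM with the antagonist, and Bhlhe40, a transcriptional repressor, from 36.1 to 65.6 CPM.

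RXR antagonist against vehicle at day 4. The glucose-entry genes Slc2a1 and Hk1 were far higher with the antagonist, several enzymes and hypoxia genes were moderately higher, and no member was 1.5-fold lower. Members were compared on the scale log2 of (CPM + 5), using genes that reached 10 CPM in 1 or more of the libraries compared, and a gene counted as higher or lower from 1.5-fold. Of 32 members 13 were higher and 0 lower, against 14.6% of 8387 genes higher and 15.4% lower. The median log2 ratio was 0.42 for the members and 0.01 for all genes. Hk1, Ndufa4l2 and Adm reached 10 CPM only through the antagonist library. Among the 29 at 10 CPM in both, 10 were higher and 0 lower, against 11.9% and 10.8% of all such genes.
Hk1 was 17.0-fold higher (15.2 to 19.0), Adm 5.47-fold (4.75 to 6.32) and Slc2a1 5.05-fold (4.89 to 5.23). Egln3 was 2.59-fold higher (2.53 to 2.66), Ndrg1 2.57-fold (2.53 to 2.60), Adm2 2.29-fold (2.10 to 2.50) and Pgk1 2.17-fold (2.16 to 2.19). The other members past 1.5-fold were Hk2, Aldoa, Gapdh, Bnip3, Ndufa4l2 and Ddit4. Ldha, Gpi1, Car9, Pdk1, Pfkfb3 and Bhlhe40 were slightly below their vehicle level, within 1.5-fold. The cell make-up differed too. Cells with 20 or more UMIs of the enterocyte genes Apoa1, Apoa4, Fabp2, Sis and Alpi were 6.37% of antagonist cells and 62.4% of vehicle cells. Cells with 10 or more UMIs of Ly6a, Ly6d and Anxa1 were 1823 of 3468 antagonist cells and 4 of 4604 vehicle cells. The part of these differences in the values over all cells was not tested, and values within cell sets are given further on.

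Many relatives of the member genes were lower with the antagonist. Of 14 other isoforms and transporters measured, 1 was higher and 9 lower with the antagonist. The sodium-glucose cotransporter Slc5a1 was at 31.1 CPM with the antagonist and 692 in the vehicle. The liver-type pyruvate kinase gene Pklr and the sugar exporter Slc2a2 were lower as well. Of 10 genes of gluconeogenesis and fructose use, 2 were higher and 7 lower, among them the fructokinase Khk, at 27.6 CPM with the antagonist and 979.7 in the vehicle. Of 19 other known hypoxia targets, 7 were higher and 2 lower. Ero1l, which forms disulfide bonds in the secretory pathway, was at 2354 CPM with the antagonist and 512 in the vehicle. Of 13 genes of glucose sensing and stress, 6 were higher and 2 lower. The cystine importer Slc7a11 was at 110.5 CPM with the antagonist and 6.47 in the vehicle. Mlxipl, a glucose-sensing transcription factor, was at 11.4 CPM with the antagonist and 118 in the vehicle.

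Retinoic acid against vehicle at day 4. Nearly every measured member was lower with retinoic acid, from the glucose transporter Slc2a1 to the lactate exporter Slc16a3. The retinoic acid library also had more cells with enterocyte genes (87.5% of cells, against 62.4% in the vehicle), and their part in the values over all cells was not tested. Of 29 measured, 26 were at least 1.5-fold lower and 0 higher, against 20.9% of 7976 genes lower and 6.03% higher. The median log2 ratio was -1.08 for the members and -0.27 for all genes, a shift that moves with scaling, so the count was repeated relative to the median of all genes. It was then 18 lower and 0 higher, against 8.8% of genes lower and 11.1% higher. Hk1, Ndufa4l2 and Adm were below 10 CPM in both libraries, and Hk2, Pfkfb3 and Adm2 reached it only through the vehicle. Among the 26 at 10 CPM in both, 23 were lower, against 17.7% of such genes.
Adm2 was 12.1-fold lower (9.56 to 15.6), Ddit4 6.45-fold (5.93 to 7.03), Egln3 5.28-fold (5.03 to 5.55), Ankrd37 4.35-fold (4.15 to 4.56) and Slc2a1 4.26-fold (3.99 to 4.55). Slc16a3 was 3.57-fold lower (3.41 to 3.73), Pdk1 2.85-fold (2.71 to 3.01), Pfkl 2.67-fold (2.59 to 2.75), Aldoa 2.46-fold (2.44 to 2.48) and Pgk1 2.45-fold (2.42 to 2.48). Only Gpi1, Gapdh and Ldha stayed within 1.5-fold, with Ldha at 3364 CPM with retinoic acid and 4422 in the vehicle.
Among related genes, 11 of 18 other hypoxia targets were lower and 1 higher. Stc2, a secreted stress-induced glycoprotein, was at 2.48 CPM with retinoic acid and 35.3 in the vehicle. The mitochondrial adenylate kinase Ak4 was at 5.28 CPM with retinoic acid and 35.5 in the vehicle. Ero1l was at 148 CPM with retinoic acid and 512 in the vehicle. Other isoforms did not follow. Of 15, 1 was higher (Slc2a2, at 310.2 CPM with retinoic acid and 172 in the vehicle) and 2 lower. Of 10 gluconeogenesis and fructose genes, 4 were higher and 1 lower. The glucose-releasing phosphatase G6pc was at 164 CPM with retinoic acid and 48.5 in the vehicle. Pck2, the mitochondrial carboxykinase, was at 15.5 CPM with retinoic acid and 62.6 in the vehicle. Pdk4, a relative of Pdk1 that responds to fatty acids, was at 59.9 CPM with retinoic acid and 0.460 in the vehicle, the opposite direction to Pdk1. Of 11 glucose-sensing and stress genes, 7 were lower and 0 higher, with Txnip, whose product slows glucose uptake, at 171 CPM with retinoic acid and 433 in the vehicle.

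Cells with a sum of 5 or more UMIs of the crypt stem-cell genes Lgr5 and Olfm4 were taken as a separate set. The cut gives a range on these genes and not a cell type. There were 220 such cells with retinoic acid, 1004 in vitamin A-free medium and 562 in the vehicle, but only 6 with the antagonist and 5 and 2 at day 1, where no comparison was made. At 4 or 5 UMIs, next to the cut, lay 11 cells outside and 16 inside with retinoic acid, 74 and 65 in vitamin A-free medium, and 58 and 30 in the vehicle. The median of the summed enterocyte genes was 6 UMIs per cell with retinoic acid, 4 in vitamin A-free medium and 4 in the vehicle, and that of the mitotic genes Mki67, Top2a and Cenpf was 7 with retinoic acid, 3 in vitamin A-free medium and 6.5 in the vehicle. The medians of goblet, enteroendocrine and Ly6 genes were 0, and that of Paneth genes was 1 with retinoic acid and 0 in the others. Median depth was 10782 UMIs per cell with retinoic acid, 10143.5 in vitamin A-free medium and 11482 in the vehicle.
Within these cells the enzymes were again lower with retinoic acid. The 14 enzymes summed to 6330.0 CPM with retinoic acid, 15503 in vitamin A-free medium and 15139 in the vehicle. Per cell, their UMIs per 10000 had a median of 57.0 with retinoic acid (10th to 90th percentile 40.3 to 94.0), 157 in vitamin A-free medium (88.2 to 220) and 152 in the vehicle (90.3 to 214). The 90th percentile with retinoic acid lay far below both other medians.
Of 29 members measured, 26 were at least 1.5-fold lower with retinoic acid than in the vehicle and 0 higher, against 3.02% of 8512 genes lower and 1.43% higher. The median log2 ratio was -1.29 for members and 0.00 for all genes. Of the 25 at 10 CPM in both libraries 22 were lower, against 2.08% of such genes, while Pfkfb3, Slc16a3, Egln3 and Adm2 passed only through the vehicle. Slc16a3, the lactate exporter, was at 5.57 CPM with retinoic acid and 112 in the vehicle, 20.2-fold lower (12.2 to 36.2). Egln3 was at 4.45 CPM with retinoic acid and 67.7 in the vehicle, 15.2-fold lower (8.62 to 29.6). Bnip3 was at 13 CPM with retinoic acid and 109 in the vehicle, 8.40-fold lower (5.98 to 12.1). With retinoic acid these rest on 15 UMIs of Slc16a3, 12 of Egln3 and 35 of Bnip3.
The enzymes were more evenly lower. Pgk1 was at 667 CPM with retinoic acid and 2131 in the vehicle, 3.19-fold lower (3.04 to 3.36). Aldoa was at 689.7 CPM with retinoic acid and 1880.4 in the vehicle, and Ldha at 1429 CPM with retinoic acid and 3285 in the vehicle. Pkm was at 846 CPM with retinoic acid and 2164 in the vehicle. RNA of the glucose transporter Slc2a1 was lower too, at 27.8 CPM with retinoic acid and 67.1 in the vehicle, 2.41-fold lower (1.88 to 3.12). Pdk1, the brake on pyruvate oxidation, was at 43.0 CPM with retinoic acid and 123 in the vehicle. Ldha and Gapdh, within 1.5-fold over all cells, were 2.30-fold (2.22 to 2.38) and 1.97-fold (1.80 to 2.16) lower here. Hk2, Vegfa and Car9 stayed within 1.5-fold on the log2 scale of CPM + 5, with Hk2 at 17.8 CPM with retinoic acid and 21.0 in the vehicle. Pfkfb3 had 3 UMIs with retinoic acid against 17.2 CPM in the vehicle, a ratio of 15.5 (counting interval 5.16 to 76.1). Of 18 other hypoxia targets in these cells, 10 were lower and 1 higher. Ak4 was at 3.34 CPM with retinoic acid and 31.3 in the vehicle, and Ero1l at 69.4 CPM with retinoic acid and 283 in the vehicle.

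**Figure D3:**
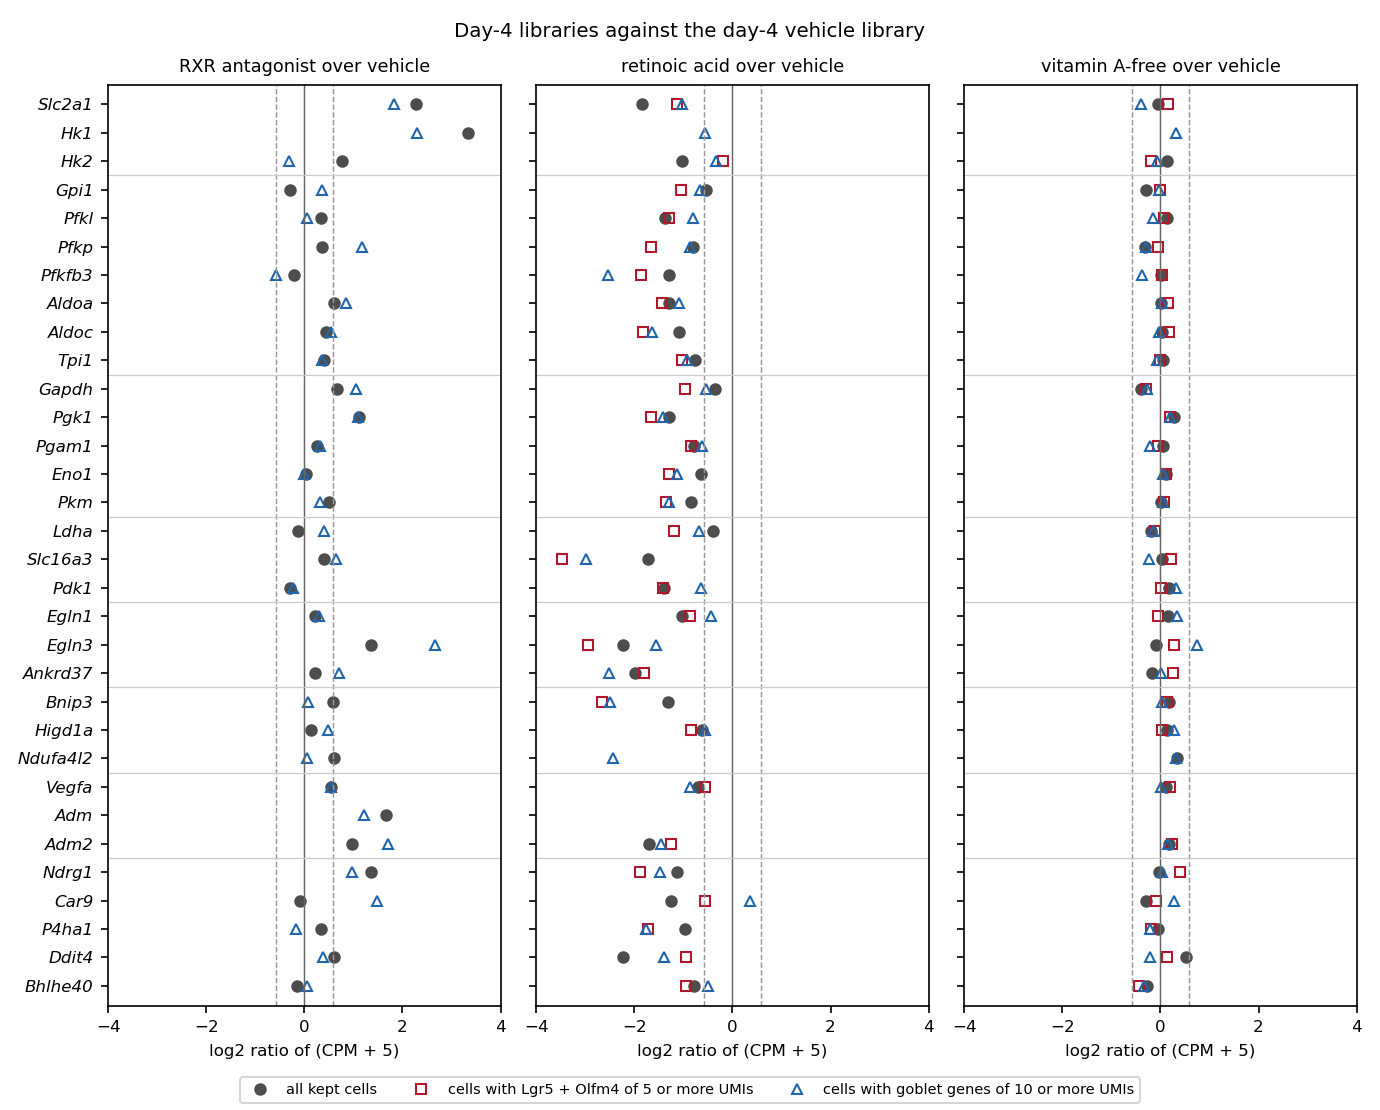
Log2 ratio of (CPM + 5) for each member in each treated day-4 library over the day-4 vehicle, in all kept cells, in cells with Lgr5 plus Olfm4 of 5 or more UMIs and in cells with 10 or more UMIs of goblet genes; dashed lines mark 1.5-fold, and genes under 10 CPM in both libraries or sets under 50 cells are not drawn. With retinoic acid all points but Car9 in goblet-gene cells lie left of 0, with the antagonist most lie near or right of 0, and in vitamin A-free medium they cluster around 0.

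Vitamin A-free medium against vehicle at day 4. No member was 1.5-fold apart over all cells, with 30 measured, against 1.34% of 8180 genes higher and 1.34% lower. The median log2 ratio of the members was 0.03. The ratios farthest from 0 were 0.52 for Ddit4 and -0.41 for Gapdh. Ddit4 was at 102 CPM in vitamin A-free medium and 69.4 in the vehicle, and Gapdh at 523 CPM in vitamin A-free medium and 694 in the vehicle. In cells with Lgr5 plus Olfm4, 0 of 29 were 1.5-fold apart, against 0.753% of 8497 genes higher and 0.353% lower, and the ratios ran from -0.44 for Bhlhe40 to 0.40 for Ndrg1. Among related genes, 2 of 14 other isoforms were lower, Slc2a2 among them, as were 2 of 9 gluconeogenesis and fructose genes (G6pc and Slc2a5), and 1 of 18 other hypoxia targets was higher, Stc2 at 56.4 CPM in vitamin A-free medium and 35.3 in the vehicle.

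RXR antagonist against retinoic acid at day 4. Both libraries also enter the comparisons with the vehicle above. Of 32 members 30 were higher with the antagonist and 0 lower, against 31.6% of 8191 genes higher and 14% lower. The median of all genes was 0.33, and relative to it 27 members were higher, against 15.5%. Hk1, Hk2, Pfkfb3, Ndufa4l2, Adm and Adm2 reached 10 CPM only through the antagonist library. Among the 26 at 10 CPM in both, 24 were higher, against 27.8% of such genes. Hk1 was 106-fold higher (83.0 to 138) and Slc2a1 21.5-fold (20.3 to 22.9). Egln3 was 13.7-fold higher (13.1 to 14.4) and Pgk1 5.32-fold (5.27 to 5.37). Only Gpi1 and Ldha stayed within 1.5-fold, with Ldha at 4067 CPM with the antagonist and 3364 with retinoic acid. Of 19 other hypoxia targets, 14 were higher and 1 lower, with Ero1l at 2354 CPM with the antagonist and 148 with retinoic acid, while 8 of 14 other isoforms and 8 of 11 gluconeogenesis and fructose genes were lower. Pdk4 was at 2.58 CPM with the antagonist and 59.9 with retinoic acid.

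Vehicle at day 4 against day 1. This comparison has 2 libraries at day 1 and could be tested with edgeR's quasi-likelihood test on UMIs summed per library, adjusted over all genes by Benjamini-Hochberg. The single day-4 library is taken to vary like the day-1 pair. The p-values measure only the spread between the day-1 libraries, and nothing says that these came from separate cultures. Of 32 members 29 rose at day 4 and 0 fell at an adjusted p under 0.05, against 17.2% of 17585 genes that rose and 16.8% that fell. The median log2 fold change was 1.92 for members and -0.03 for all genes. By size alone, 25 of 29 measured were 1.5-fold higher and 0 lower, against 14.7% of 8619 genes higher and 26.8% lower. Relative to the median of all genes, which was -0.18 on the log2 scale, 27 were higher and 0 lower, against 20% and 18.3%. Pfkfb3, Aldoc, Slc16a3, Ankrd37, Adm2 and P4ha1 reached 10 CPM only through the day-4 library. Among the 23 at 10 CPM in all 3 libraries 19 were higher, against 12.2% of such genes. Higd1a, Hk1 and Hk2 did not pass the test, at 0.17, 0.26 and 0.10.
Among the members, every glycolytic enzyme after hexokinase rose. Aldoc rose most among enzymes, by 4.81 ± 0.19 (SE, edgeR adjusted p = 0.000504) on the log2 scale. Gpi1 rose by 2.42 ± 0.18 (SE, edgeR adjusted p = 0.00134), Aldoa by 1.96 ± 0.14, Pfkl by 1.91 ± 0.14, Pgk1 by 1.74 ± 0.14 and Ldha by 1.58 ± 0.13. Pgam1 rose least of these, by 0.68 ± 0.14 (SE, edgeR adjusted p = 0.0152). Slc16a3 rose by 5.17 ± 0.21 (SE, edgeR adjusted p = 0.000504), while the glucose importer Slc2a1 rose by only 1.20 ± 0.16.
Several hypoxia genes rose by about 3 or more on this scale. Ankrd37 rose by 4.11 ± 0.18 (SE, edgeR adjusted p = 0.000652), Bnip3 by 3.49 ± 0.18, Adm2 by 3.56 ± 0.25, Egln3 by 3.13 ± 0.16 and Car9 by 2.95 ± 0.14. Ndrg1 rose by 3.27 ± 0.42 (SE, edgeR adjusted p = 0.00436), with the widest error of the 32. Ndufa4l2 had 8 UMIs over both day-1 libraries against 452 at day 4, a ratio of 138 (counting interval 69.2 to 321). Egln1 rose by 0.69 ± 0.16 (SE, edgeR adjusted p = 0.0217), and Bhlhe40 by 0.95 ± 0.14.

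**Figure D4:**
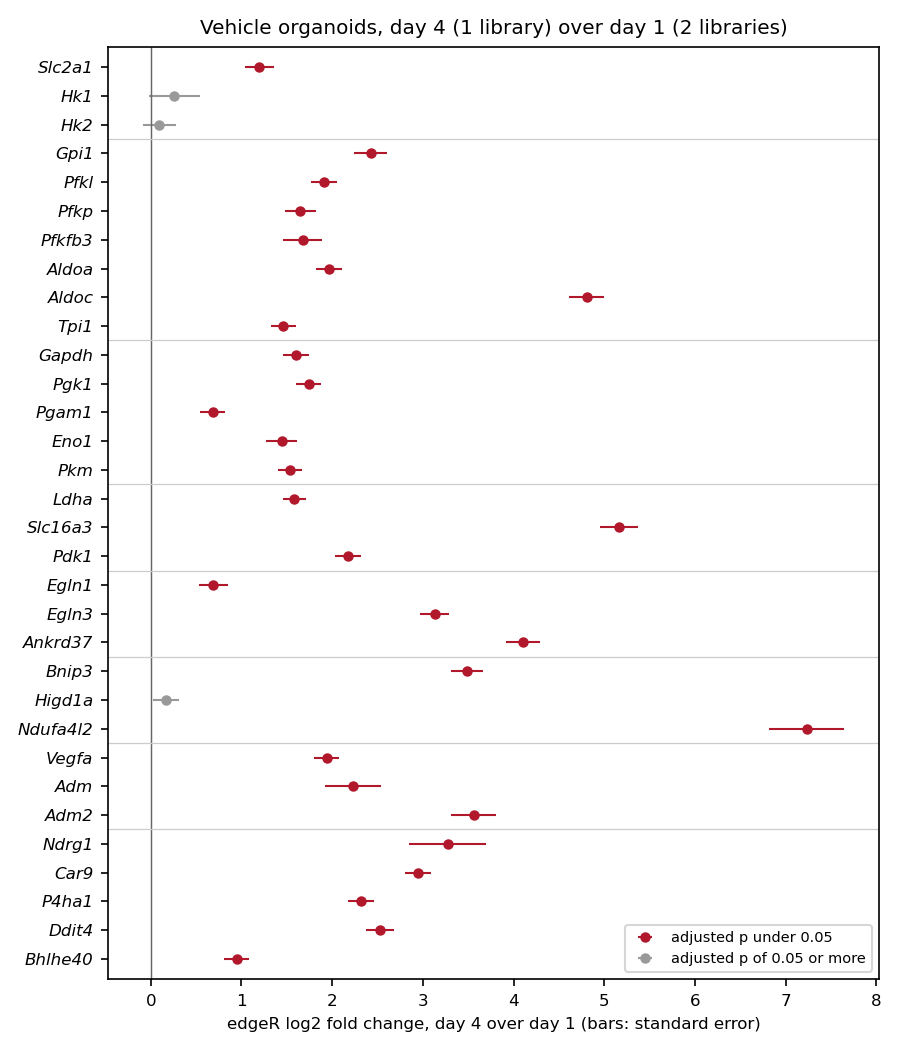
edgeR log2 fold change of each member in vehicle organoids at day 4 (1 library) over day 1 (2 libraries), with bars for the standard error and grey points for an adjusted p of 0.05 or more. The 29 coloured points all lie right of 0, and Higd1a, Hk1 and Hk2 lie near it.

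Cells with mitotic genes were more frequent at day 1. Cells with 10 or more UMIs of Mki67, Top2a and Cenpf were 12.6% at day 4 and 49.4% and 42.2% at day 1. Within these cells alone, a comparison added after the data were seen, 30 of 32 members rose and 0 fell by edgeR's test, against 9.83% of 15323 genes that rose and 9.16% that fell. Hk2 was among those that rose, at 1.01 (edgeR adjusted p = 0.0364). In cells with 10 or more UMIs of the goblet genes Muc2, Zg16 and Fcgbp, 26 of 31 rose, against 7.65% of 9123 genes that rose and 7.53% that fell. Of related lists, 16 of 24 other hypoxia targets rose and 1 fell (Anxa2). The largest of these were Mgarp, a mitochondrial protein, at 6.18 ± 0.44 (SE, edgeR adjusted p = 0.0013), and Plod2, a collagen lysyl hydroxylase, at 3.38 ± 0.77. Genes of gluconeogenesis and fructose use rose as well, 9 of 11, with G6pc at 6.02 ± 0.55 and Pck1, the cytosolic carboxykinase, at 5.74 ± 0.50. Among 19 other isoforms 9 rose and 1 fell. That was Ldhb, the partner subunit of Ldha, which fell by 3.33 ± 0.40. Of 13 genes of pyruvate entry into mitochondria 4 rose and 2 fell, and of 13 glucose-sensing and stress genes 6 rose and 0 fell.

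The genes that encode the HIF system itself differed among themselves. Hif1a, the oxygen-regulated subunit, was at 86.3 CPM with the antagonist, 95.8 with retinoic acid, 70.5 in vitamin A-free medium, 70.8 in the day-4 vehicle, and 61.4 and 58.7 at day 1. Its day-4 values lay above day 1, but at 0.42 ± 0.14 it did not pass (edgeR adjusted p = 0.0719). Epas1, which encodes another oxygen-regulated subunit, was at 13.8 CPM with the antagonist, 12.4 with retinoic acid, 4.73 in vitamin A-free medium, 6.71 in the day-4 vehicle, and 1.92 and 2.82 at day 1, and rose between day 1 and day 4 by 1.68 ± 0.28 (SE, edgeR adjusted p = 0.00786). Arnt, the constant partner, Vhl, which binds hydroxylated HIF for decay, Egln2 and Hif1an, further oxygen-dependent hydroxylases, were not called between day 4 and day 1, at 0.50, 0.14, 0.07 and -0.19. Of 9 genes of this list tested there, 3 rose and 1 fell. Besides Epas1, Hif3a, a further family member, rose by 3.80 ± 0.22 (SE, edgeR adjusted p = 0.00092), and Cited2, a competitor of HIF for its coactivator, by 1.42 ± 0.15 (SE, edgeR adjusted p = 0.0028). Arnt2, a relative of Arnt, fell by 3.06 ± 0.35 (SE, edgeR adjusted p = 0.00332). With retinoic acid against the vehicle 0 of 6 measured were 1.5-fold apart on the scale of CPM + 5. Epas1 lay just under that cut, at 12.4 CPM with retinoic acid and 6.71 in the vehicle. Arnt was at 13.8 CPM with retinoic acid and 16.8 in the vehicle, and Vhl at 7.99 CPM with retinoic acid and 9.41 in the vehicle. Egln2 was at 71.7 CPM with retinoic acid and 78.3 in the vehicle, and Hif1an at 17.1 CPM with retinoic acid and 14.5 in the vehicle. With the antagonist 1 of 8 was higher (Epas1) and 1 lower (Cited2, at 43.0 CPM with the antagonist and 160.3 in the vehicle). These are RNA levels, while HIF is regulated mainly as protein.

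Most members were lower with retinoic acid within each cell set examined, while the number of members higher with the antagonist differed between sets. The summed enzymes were above the vehicle with the antagonist in mitotic-gene cells (18676 against 15845 CPM). They were also above it in goblet-gene (18404 against 12357 CPM) and enterocyte-gene cells (22103 against 18689 CPM). With retinoic acid against the vehicle, 28 of 29 measured members were lower in cells with mitotic genes, against 3.03% of genes, 24 of 31 in cells with goblet genes, against 9.86%, and 25 of 28 in cells with enterocyte genes, against 13.3%. With the antagonist against the vehicle, 5 of 31 were higher in cells with mitotic genes, against 10.8%, 13 of 32 in cells with goblet genes, against 14%, and 9 of 31 in cells with enterocyte genes, against 19.6%. Hk1, Hk2 and Adm in enterocyte-gene cells, Adm in goblet-gene cells and Hk1 in mitotic-gene cells reached 10 CPM only through the antagonist library. With retinoic acid, Pfkfb3 and Adm2 in goblet-gene and enterocyte-gene cells reached it only through the vehicle. So did Ndufa4l2 in goblet-gene cells and Ddit4 in enterocyte-gene cells. Counts of members at 10 CPM in both libraries were not made in these sets. In cells with 2 or more UMIs of Lgr5 alone, a set chosen after seeing the data that holds 109 antagonist and 460 vehicle cells, 11 of 31 members were higher with the antagonist, against 12.5%. With retinoic acid, 27 of 29 were lower in such cells, against 5.6%. In mitotic-gene cells Slc2a1 was at 224 CPM with the antagonist and 82.6 in the vehicle, and Hk1 at 60.9 CPM with the antagonist and 6.31 in the vehicle. Ddit4 there was at 97.3 CPM with the antagonist and 130.1 in the vehicle, and Hk2 at 14.7 CPM with the antagonist and 17.5 in the vehicle, both below the vehicle. In goblet-gene cells Car9 went against the other members with retinoic acid, at 72.8 CPM with retinoic acid and 55.5 in the vehicle, and Egln3 was 7.05-fold higher (5.14 to 9.93) with the antagonist. The gates are sums of a few genes and do not hold the same cells in each library. Mitotic-gene cells had a median of 40 UMIs of the Ly6 genes with the antagonist and 0 in the vehicle, and the part of that in the values was not tested. Enterocyte-gene cells had a median of 27 UMIs of their genes with the antagonist, 444 with retinoic acid and 97 in the vehicle. With the antagonist 71 of 221 such cells lay just above the cut, and in the vehicle 149 of 2873. Likewise, 14 cells with the antagonist and 56 in the vehicle lay just above the mitotic cut, of 121 antagonist and 582 vehicle cells.

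**Figure D5:**
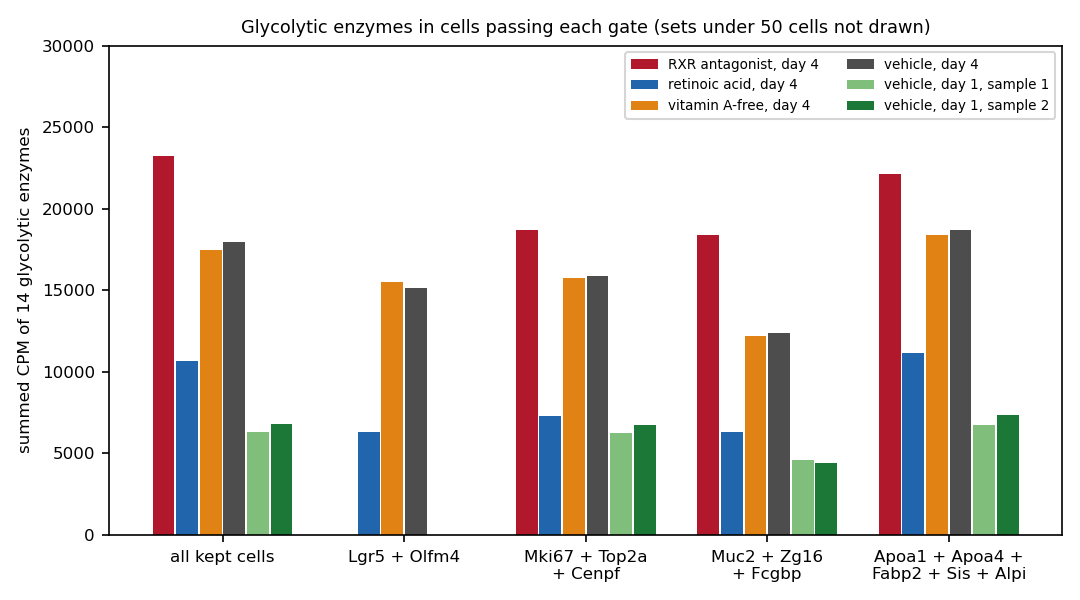
Summed CPM of the 14 glycolytic enzymes in all kept cells and in cells that pass each gene gate, with 1 bar per library and no bar for sets under 50 cells. In each set the antagonist bar, where drawn, is the highest of the libraries, the retinoic acid bar is lower than the vehicle bar, and the vitamin A-free bar is close to the vehicle bar.

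Within each library the members also differed between cell sets, described here with no test. Cells with goblet or Paneth genes carried fewer glycolytic enzyme UMIs relative to their own total UMIs. Cells with goblet genes had 0.585 to 0.783 times the summed enzyme CPM of the other cells of their library in 6 of 6 libraries, and cells with 10 or more UMIs of the Paneth genes Lyz1, Defa24 and Mmp7 had 0.557 to 0.678 times in the 5 libraries with 50 such cells. These sets are not separate cell types. Goblet-gene cells had medians of 55 Paneth and 30 goblet UMIs in vitamin A-free medium, and of 60 and 59.5 in one day-1 library and 103 and 111 in the other, while with the antagonist they had 1 Paneth and 117 goblet UMIs. Cells with enterocyte genes had 0.946 to 1.58 times, the lowest with the antagonist and the highest with retinoic acid. Cells with Lgr5 plus Olfm4 had 0.581 times with retinoic acid, 0.861 in vitamin A-free medium and 0.823 in the vehicle. Lower sums were also found in cells with enteroendocrine genes, at 0.922 times in vitamin A-free medium and 0.713 and 0.638 at day 1. Mitotic-gene cells ranged from 0.669 times with retinoic acid to 0.993 in a day-1 library.
Single members stood apart. Hk2 was high in cells with 5 or more UMIs of the enteroendocrine genes Chga, Chgb and Neurod1, at 207 CPM against 10.6 in the other cells in vitamin A-free medium, and at 123 against 9.69 and 175 against 7.84 CPM in the day-1 libraries. The same cells had more Bnip3, at 448 CPM against 167 in the other cells in vitamin A-free medium, and at 45.2 against 13.1 and 48.1 against 15.9 CPM at day 1. High Hk2 was not particular to them. It was at least 1.5-fold higher in goblet-gene cells in 5 of 6 libraries, at 37.3 against 10.1 CPM in the vehicle. In cells with Lgr5 plus Olfm4 it was so in 2 of 3 libraries. Hk2 was lower in cells with enterocyte genes than in other cells in 6 of 6 libraries, and such cells were 87.5% of the retinoic acid library and 62.4% of the vehicle. The part of this in the low Hk2 of retinoic acid was not tested over all cells, and in the Lgr5 and Olfm4 cells Hk2 was at 17.8 CPM with retinoic acid and 21.0 in the vehicle.
Car9 was lower in goblet-gene cells in 6 of 6 libraries, for example at 163 against 298 CPM with the antagonist and 55.5 against 315 in the vehicle, and so was Egln3. Ndrg1 was lower in mitotic-gene cells in 6 of 6, at 475 against 1378 CPM with the antagonist and 217 against 578 in the vehicle. Ddit4 was higher in cells with Lgr5 plus Olfm4 in 3 of 3, at 68.6 against 8.05 CPM with retinoic acid, 152 against 87.2 in vitamin A-free medium and 138 against 58.9 in the vehicle. Ldha was lower in Paneth-gene cells in 5 of 5. In the antagonist library, Slc2a1 was at 538 CPM in cells with 10 or more UMIs of Ly6a, Ly6d and Anxa1 against 233 in the others, which is still above the 81.7 CPM of the vehicle. It was also higher in such cells in both day-1 libraries.

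Across single cells thinned to 5000 UMIs each, the genes whose counts went most closely together in 3 of the day-4 libraries were Pgk1 and Aldoa, with Spearman's rho of 0.608 with the antagonist, 0.536 in vitamin A-free medium and 0.481 in the vehicle. With retinoic acid the closest pair was Ldha and Gpi1, at 0.407. At day 1 no pair went above 0.100 in one library and 0.145 in the other. Cells of a library share their depth, composition and processing, so these values are descriptions, and low counts lower them. They cover 3240, 4584 and 4252 cells for the first pair and 4848 cells for the retinoic acid pair.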

How the data were processed

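Single-cell RNA libraries of the 6 samples were analysed as deposited, as UMI counts per gene and cell made by the authors. The labels' protocols name sorting against debris and dead cells and 10x 3′ chemistry, and the submitters' processing notes name bcl2fastq 2.17, Cell Ranger 3.1.0 and GRCm38 with no role or order. The 32 genes and all other lists were chosen with earlier results of these data known. From the counts, cells under 500 genes or 1000 UMIs or with over 20% mitochondrial UMIs were to be removed, which took out 0 cells, and the barcodes with the highest Scrublet scores (scanpy 1.11.5) were removed as likely doublets at 0.8% per 1000 barcodes, 2.86% to 4.47% of a library. Scrublet's own threshold marked 0% to 1.35%. Counts were summed per library, or per cell set within a library, and scaled to CPM of that sum. Ratios used a pseudocount of 5 CPM, a floor of 10 CPM and a threshold of 1.5-fold. Vehicle organoids at day 4 and day 1 were compared with edgeR 4.0.16 (TMM, quasi-likelihood, Benjamini-Hochberg at 0.05; 1 residual degree of freedom) in R 4.3.3, with DESeq2 1.42.0 as an alternative. The code was tested on simulated data. All 32 genes are named, with up to 4 genes of each other list among those at 1.5-fold or more, and 6 core genes of the HIF system in any case. Alternatives were other scalings, floors, pseudocounts and gates, equal weight per cell, all barcodes, each day-1 library left out, and cell sets. Exact counting intervals are at the 95% level. Some genes of the other lists are not reported here.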

Additional observations from a re-analysis of the deposited data

How the results depend on the processing

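No paired analysis was possible because each treatment has 1 library and the day-1 numbers pair with no other sample. Of 188 alternative values of the counts reported, 181 stayed within 1.5 times or, for a count of 0, at 0, and 7 moved. Each comparison of members has a direction with a count of 0. Many of the 181 are therefore zeros that stayed 0 and do not bear on the counts above 0. The higher count of 13 with the antagonist over the vehicle was 5 in cells with mitotic genes, and the count of 0 in vitamin A-free medium was 1 (Egln3) in cells with goblet genes. Retinoic acid's 26 lower members ranged over 18 to 29 in all cells, and over 22 to 28 in cells with Lgr5 plus Olfm4, while 25 to 30 members were higher with the antagonist than with retinoic acid. With either day-1 library left out, 25 to 26 members were 1.5-fold higher at day 4. By edgeR 26 to 30 members rose under the alternatives. Over all genes, edgeR's 3025 higher calls became 1507 in mitotic-gene and 698 in goblet-gene cells, and its 2950 lower calls became 1403 in mitotic-gene cells, 687 in goblet-gene cells and 1832 without a filter on low counts. Fewer cells, fewer UMIs or, without a filter, more genes tested are part of these settings.

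Single genes moved more often. Of 2234 alternative log2 ratios of members, 580 moved by more than the spread between the day-1 libraries, and of 287 edgeR values 282 kept their call. Single values turned in 5 cases. The log2 ratio of antagonist over vehicle for Hk2, 0.76 over all cells, was -0.19 in mitotic-gene and -0.31 in goblet-gene cells, and that of Ddit4, 0.61 over all cells, was -0.40 in mitotic-gene cells. Car9 with retinoic acid over vehicle, -1.25 over all cells, was 0.36 in goblet-gene cells. Hk2 at day 4 over day 1, 0.10 by edgeR, was -0.36 in cells under the mitotic cut (edgeR adjusted p = 0.396), with no call in either. The causes were not tested. Egln1 lost its edgeR call without a filter (adjusted p = 0.0534) and in goblet-gene cells (0.176), as did Bhlhe40 in goblet-gene cells (0.154). The cell sets, the scaling to the median of all genes and the Lgr5 set were added after seeing the data. Shares of cells with a UMI, thinned or not, are not reported. One library per treatment limits each day-4 comparison to these libraries, whose spread between cultures is unknown.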
